A study of Mus musculus with 12 samples.

Results

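The 4 libraries described here are the GFP controls of a study of 12 libraries of mouse prefrontal cortex, and they give the gene expression of that tissue without a change to Ttr by the virus. They were chosen by their label alone: control replicates 1 to 4. The mice were male C57BL/6J animals aged 14 weeks, kept on standard chow. Each had received an adeno-associated virus (AAV, a vector for gene delivery) on both sides into the dorsomedial prefrontal cortex 4 weeks before the tissue was taken. The control vector was pAAV.1-CAG-GFP, in which the ubiquitous CAG promoter drives green fluorescent protein (GFP) and nothing else. The other 8 libraries, 4 each, carried GFP joined to the transthyretin gene Ttr behind CAG (overexpression), or a short hairpin RNA against Ttr behind the U6 promoter together with CAG-driven GFP (knockdown). Both Ttr vectors were custom made and the control vector came from a repository, so vector origin and group cannot be told apart. All 12 libraries thus come from injected cortex, and an uninjected cortex was not analysed here. The labels do not say that each control came from its own mouse, so a standard deviation (SD) over the 4 measures the spread between these samples.

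The prefrontal cortex is a layered sheet of excitatory pyramidal neurons that release glutamate, mixed with fewer inhibitory interneurons that release GABA, and held in place by astrocytes, oligodendrocytes, microglia and blood vessels. Messenger RNA of such tissue is dominated by the machinery of synapses, of energy supply and of the cytoskeleton. White matter, rich in myelin, lies beneath the cortex, the striatum lies beneath that, and the meninges cover its surface, so that the depth and the edge of a dissection decide which of these tissues comes along. In bulk RNA a lower level can mean fewer cells of a type or less RNA per cell, which cannot be told apart here.

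Levels are given as the deposited TPM (a transcript abundance: the count divided by a length of the gene and scaled to the same total in every library), which allows genes to be compared within a library. Spread between libraries is given from the counts as CPM (counts scaled to a common library size with TMM factors, no length). Total counts were 24362582, 23955545, 37166146 and 22911948 in controls 1 to 4, so control 3 was the deepest. The other 8 libraries held 19879629 to 34606413. Ttr, the targeted gene, had 0.495 to 8.45 CPM in the controls and 94.6 to 638 CPM in the libraries labelled overexpression. In the libraries labelled knockdown it had 0.143 to 1.85 CPM, which overlapped the controls (edgeR adjusted p = 0.936). For 80.3% of genes the length behind the deposited TPM lay within 2% of the longest annotated transcript, so a gene whose shorter form is the one used gets a lower TPM than a length of that form would give.

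A small RNA and the mitochondrial genome led the order of abundance. Bc1, the brain cytoplasmic RNA of rodents, a short untranslated RNA made by RNA polymerase III and carried into dendrites, had 67321, 68308, 56020 and 58534 TPM in controls 1 to 4. Controls 1 and 2 lay above controls 3 and 4, and the mean of 62546 ± 6183 TPM (SD, n = 4) was 6.25% of the whole. The gene (ENSMUSG00000115783) covers chr7:144914470-144914637 on the plus strand of GRCm38. Its 168 bases are shown because their A-rich run, bases 77 to 128, stands inside an RNA that was read after poly(A) selection. In that run, printed in capitals, 45 of 52 bases are A, and the sequence is from the GENCODE M21 transcripts of GRCm38. Whether the run took part in the selection was not tested.
Bc1: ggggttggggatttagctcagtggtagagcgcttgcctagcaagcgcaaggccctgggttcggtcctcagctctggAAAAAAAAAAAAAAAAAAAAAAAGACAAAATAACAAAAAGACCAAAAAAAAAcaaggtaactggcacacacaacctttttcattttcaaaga
The reads behind this level numbered 109471, 110461, 135675 and 89359 in controls 1 to 4, so counting error was small. Per count, without the division by its short length, Bc1 stood lower, with a mean of 4204 ± 471 CPM.

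Mitochondrially encoded transcripts held the next 8 places. The leader was mt-Co1, a subunit of cytochrome c oxidase, with 26445, 22770, 26290 and 20538 TPM. Controls 1 and 3 were higher than controls 2 and 4. The next was mt-Cytb, cytochrome b of complex III, with a mean of 19467 ± 2044 TPM. NADH dehydrogenase subunits followed, with 17467 ± 2328 TPM for mt-Nd1 and 10500 ± 1629.8 TPM for mt-Nd2. The ribosomal RNAs mt-Rnr2 and mt-Rnr1 came between these and the last 2, mt-Nd5 and mt-Nd4, which had means of 7692 and 7092 TPM. Control 4 had the lowest level of all 6 messenger RNAs among these 8.

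The highest nuclear messenger RNA was Snap25, a protein of the complex that fuses synaptic vesicles with the membrane, with 3656, 3688, 4277 and 3533 TPM. Control 3 was the highest, and the other 3 lay close together. Energy supply, iron storage and secretion followed. Aldoa, a glycolytic aldolase, had 2801 ± 187 TPM, Fth1, the ferritin heavy chain, 2727 ± 559 TPM, and Cpe, a peptide-processing carboxypeptidase, 2537 ± 130.2 TPM. Cst3, the protease inhibitor cystatin C, reached 2513 ± 234 TPM and the astrocytic lipid carrier Apoe 2069 ± 133 TPM. Calcium signalling was represented by Calm2 at 2334 ± 174 TPM and the calmodulin-binding protein of dendritic spines Nrgn at 2251 ± 99.8 TPM. Tspan7, Tmsb4x, Sparcl1, the axonal motor Kif5a and the chaperone Hsp90ab1 closed the first 25, with means between 1664 and 1760.1 TPM. Fth1 varied most of these nuclear genes, from 2282 TPM in control 3 to 3455 TPM in control 2, and Nrgn least, from 2151 to 2381 TPM. The 25 also held 2 pseudogenes, Gm14303 and Gm35595, taken up below with their parent genes.

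**Figure D1:**
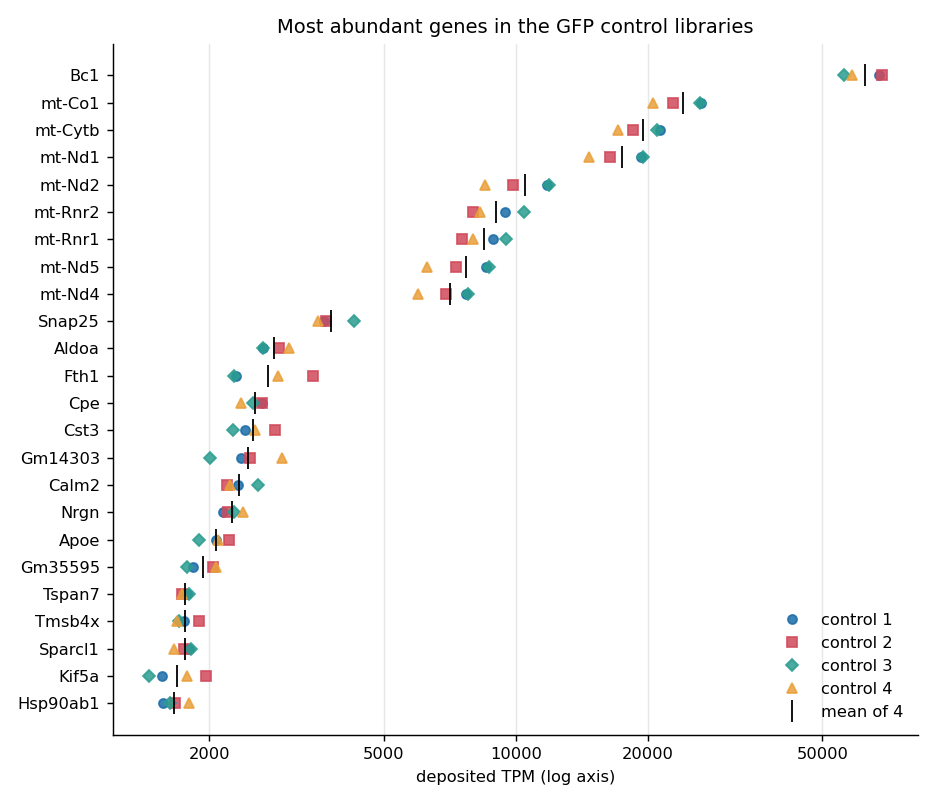
Deposited TPM (log axis) of 24 of the 25 genes with the highest mean, one symbol per control library and a bar for the mean of 4. Bc1 stands near 62546 TPM, 8 mitochondrial transcripts follow, and Snap25, the first nuclear gene after Bc1, lies at 3788 TPM.

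The abundance was concentrated in few genes. The 10 most abundant held 17.0% ± 1.39 of the TPM, the 25 most abundant 20.2% ± 1.31, the 100 most abundant 28.2% ± 1.14 and the 1000 most abundant 55.9% ± 0.671. By library the 100 held 29.3%, 28.5%, 28.3% and 26.6%, with control 4 lowest. At 1 TPM or more, 15955 genes were detected in all 4 libraries, 13047 of them protein coding, and 51 genes reached 1000 TPM in all 4. At the other end, 24925 of 55401 identifiers, 4272 of them protein coding, had no count in any control. Of the 100 most abundant genes, 84 were protein coding, 13 pseudogenes, 2 mitochondrial ribosomal RNAs and 1 a lincRNA, which is Bc1. The length used for them had a median of 1811 bases against 2899 for all genes at 1 TPM or more in the 4 libraries. Ranked by CPM in place of TPM, 16 of the first 25, 55 of the first 100 and 614 of the first 1000 were shared, so the list of leaders depends on the division by length.

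Among gene families, the 37 mitochondrially encoded genes held 10.6% ± 1.29 of the TPM, with 11.6, 9.96, 11.8 and 9.14% in controls 1 to 4. Controls 1 and 3 were high and control 4 was low. Nuclear genes for the same respiratory chain showed the opposite order: their 86 subunit genes held 2.00% ± 0.109, with 1.94, 2.04, 1.89 and 2.14%. TPM shares sum to a fixed total, so one share can fall because another rises. Solute carriers, the membrane transporters of small molecules, were many, with 242 of 371 genes at 1 TPM or more and 1.23% ± 0.0114 of the TPM. The cytosolic ribosomal protein genes held 0.924% ± 0.0742 on their own 84 loci. By share of counts the order differed: the mitochondrially encoded genes held 5.33%, solute carriers 1.92%, the nuclear respiratory chain 0.841% and ribosomal protein genes 0.343%. By TPM, translation factors held 0.813% ± 0.0168, and heat shock and related chaperones 0.718% ± 0.0299.

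Families of membrane traffic and signalling kept close shares across the libraries. Subunits of the vacuolar proton pump, which acidifies synaptic vesicles, held 0.642% ± 0.00980, the 3 calmodulin genes 0.602% ± 0.0343, and Rab GTPases, which direct vesicles, 0.541% ± 0.0109. Tubulins held 0.414% ± 0.0215 and G protein subunits 0.404% ± 0.00893. The 27 glutamate receptor genes together held 0.152% ± 0.00433 and the 21 GABA receptor genes 0.168% ± 0.0123, each less than the 3 calmodulin genes alone. By share of counts, where length does not enter, calmodulins still led and the receptor families changed places, with 0.394% for glutamate receptors, 0.324% for GABA receptors and 0.597% for calmodulins. Potassium channels, with 70 of 94 genes at 1 TPM or more, held 0.338% ± 0.0131. Zinc finger genes named Zfp were many and low, with 342 of 397 genes at 1 TPM or more for 0.532% ± 0.0140.

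Several families were close to silent. Of the 1135 olfactory receptor genes 2 reached 1 TPM in all controls, and the family held 0.00159% ± 0.000218 of the TPM. None of the 39 Hox genes, which pattern the hindbrain, spinal cord and trunk, and none of the 331 vomeronasal receptor genes reached 1 TPM in all 4.

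Pseudogenes, copies of genes that lost their function, held 9.24% ± 0.510 of the TPM but 2.28% ± 0.108 of the counts. To see what they resemble, each was aligned to protein-coding transcripts, and a gene was called close at 90% identity or more over 80% or more of the pseudogene. Of the 210 pseudogenes at 100 TPM or more, 208 had such a gene, with a median identity of 99.1%, and 36 were identical to it over the aligned part. In 147 of the 208 the parent gene had a lower TPM than its copy. This order depends on the division by length and can be the reverse by counts. Tomm20, an example chosen after its values were seen, had 178 TPM and 9373 counts. Its copy had 220 TPM and 1021 counts. Among all 1837 pseudogenes at a mean of 1 TPM or more, 1502 had a close gene, and these held 8.86% of the TPM. A read from such a parent gene can match both places, and how the counting treated such reads is not given in the sources used here. The level of each gene of such a pair is therefore uncertain, and which locus the reads came from was not tested.

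Ribosomal protein genes were the closest genes of 61 of the 208 copies. Their own loci held 0.924% of the TPM and the pseudogenes closest to 76 of these 84 genes held 2.17%. In 47 of the 76 genes, over 50% of the joint counts lay on the copies. The same held for 195 of the 1111 genes of any kind that had a close pseudogene, the 47 included. Rps29, a protein of the small ribosomal subunit, had 8, 7, 6 and 9 counts at its own locus in controls 1 to 4, a mean of 1.90 ± 0.621 TPM, while the pseudogene Gm14303 had 2365, 2476, 2006 and 2935 TPM. The genes named with their pseudogenes here and down to the mitochondrial mt-Co2, mt-Co3 and mt-Atp6 were chosen after their values were seen, apart from those of the first 25.
Rpl38 and its pseudogene Gm8129 differ at a single base of the copied stretch and are shown for that reason, from the GENCODE M21 transcripts of GRCm38. Rpl38, of the large subunit, had a mean of 6.86 ± 1.75 TPM, and Gm8129 had 444, 413, 373 and 435 TPM. Of 5 annotated pseudogenes closest to Rpl38, 3 were at 1 TPM or more, and another of them, Rpl38-ps2, is identical to its transcript over 213 bases and had 358, 397, 292 and 505 TPM. The gene lies on the plus strand of chr11:114668524-114672331 and Gm8129 on the minus strand of chr6:52346730-52346942. Counted from the first base shown, the substitution is G50A, with the gene's base first, and that base is in capitals.
Rpl38: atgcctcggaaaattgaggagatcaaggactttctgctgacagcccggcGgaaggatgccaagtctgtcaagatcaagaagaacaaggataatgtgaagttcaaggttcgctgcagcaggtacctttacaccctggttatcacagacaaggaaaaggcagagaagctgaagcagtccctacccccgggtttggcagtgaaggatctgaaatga
Gm8129: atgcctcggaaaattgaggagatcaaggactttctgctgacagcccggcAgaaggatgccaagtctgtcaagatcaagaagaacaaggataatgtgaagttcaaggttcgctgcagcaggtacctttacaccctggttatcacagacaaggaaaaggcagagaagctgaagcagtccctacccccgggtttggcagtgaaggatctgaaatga
For Rps29 and Rpl38 the values of Gm14303, Gm8129 and Rpl38-ps2 were above that of the gene in all 4 libraries.

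Other abundant genes split in the same way. Tpt1, the translationally controlled tumour protein, had 17.9 TPM against 799 TPM on its copy, and Rpl13a 42.9 TPM against 1078 TPM on 4 copies. Elongation factor gene Eef1a1 had 940.1 TPM of its own and 858 TPM on 9 copies. For Calm2 the 3 copies held 2256 TPM, and 23.0% of the joint counts. Gm35595, in the first 25, is closest to Snrpn, a splicing protein, at 98.0% identity, and 2 copies held 54.1% of that gene's joint counts.

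Genes used as references in quantitative PCR were affected unevenly. Of 17 such genes, 7 had a close pseudogene at 1 TPM or more. Gapdh, the glycolytic enzyme, was listed at 9.55 ± 1.78 TPM, with 119, 105, 207 and 152 counts in controls 1 to 4, and 106 annotated pseudogenes were closest to it, 7 of them at 1 TPM or more. All 106 together held 22.9 TPM. Aldoa and Eno2 of the same pathway stood at 2801 and 792 TPM, far above it. What set the value of Gapdh was not tested. Ppia, cyclophilin A, had 13.6 ± 1.60 TPM with 33 such pseudogenes, and 78.8% of the joint counts lay on copies. By contrast, no annotated pseudogene met the criterion for Actb, Sdha and Hprt, which had 927 ± 56.9, 374 ± 3.38 and 269 ± 22.2 TPM. Sdha, a subunit of succinate dehydrogenase, differed by a factor of 1.02 between the highest and the lowest library.

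The mitochondrial messenger RNAs also differed among themselves by more than their spread. In contrast to mt-Co1, the neighbouring mt-Co2 had a mean of 283 ± 58.5 TPM, mt-Atp6 a mean of 316 ± 57.5 TPM and mt-Co3 211 ± 40.2 TPM. These 3 stood below mt-Co1 in all 4 libraries, by a factor of 86.7 ± 12.7 for mt-Co2. Annotated pseudogenes closest to them held 53.6, 114 and 114 TPM, less than the genes themselves. The cause of the gap was not tested.

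**Figure D2:**
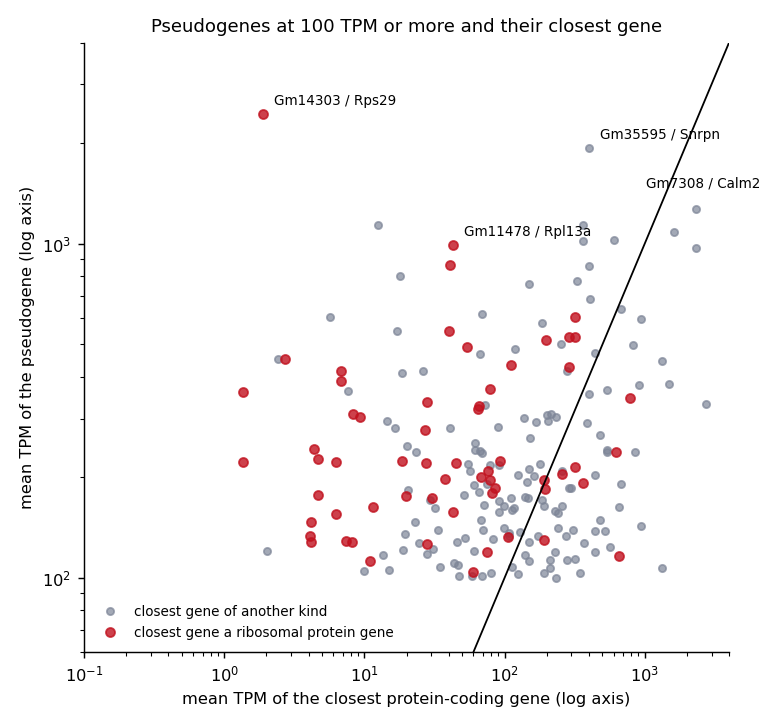
Mean TPM over 4 controls of the 208 pseudogenes at 100 TPM or more that had a close gene (vertical, log axis) against that gene's own mean TPM (horizontal, log axis), with the line of equal values. Red marks the 61 copies of ribosomal protein genes, and 147 of the 208 points lie above the line.

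By the median level of its members, the list of excitatory neurons was the highest of the 22 lists of cell types and regions. Its 12 markers summed to 6759, 6636, 6906 and 6607 TPM in controls 1 to 4, a factor of 1.05 between the highest and the lowest. Nrgn led, followed by Camk2a, the alpha subunit of the synaptic kinase CaMKII, with 1796, 1493, 1758 and 1443 TPM, and Slc17a7, the vesicular glutamate transporter of cortical neurons, with 1412, 1533, 1390.1 and 1408 TPM. Inhibitory markers summed to 649 ± 34.3 TPM. Gad1, which makes GABA, stood at 199.6 ± 16.8 TPM, Slc32a1, which loads GABA into vesicles, at 78.0 ± 11.8 TPM, and Gad2, the other GABA-making enzyme, at 72.7 ± 4.63 TPM. The ratio of Slc17a7 to Slc32a1 was 21.0, 19.0, 19.6 and 15.1 in controls 1 to 4, lowest in control 4. Among the peptides and calcium-binding proteins that name interneuron classes, Cck reached 879 ± 52.7 TPM, Sst 695 ± 82.1 TPM and Npy 225 ± 31.7 TPM. Cck is also made by pyramidal neurons.

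All 15 astrocyte markers had a mean of 1 TPM or more and summed to 3779, 3755, 3715 and 3371 TPM, with control 4 lowest, led by the glutamine synthetase gene Glul at 1327 ± 46.0 TPM, Aldoc at 631 ± 25.5 TPM and the glutamate transporters Slc1a2 and Slc1a3 at 526 ± 49.8 and 323 ± 32.5 TPM. Markers of myelinating oligodendrocytes summed to 2919, 6753, 2863 and 5083 TPM. Controls 2 and 4 were high and controls 1 and 3 low, and in control 2 the sum exceeded that of the excitatory list. Mbp and Mobp, proteins of the myelin sheath, had 838, 2007, 802 and 1573 TPM and 431, 1048, 402 and 727 TPM, with the same high and low libraries. Microglial markers summed to 926 ± 42.2 TPM, with Ctss, a lysosomal protease, and the complement genes C1qa and C1qb between 118 and 141 TPM. The endothelial sum was 949 ± 25.9 TPM, of which Bsg, which other cells make too, gave 594 TPM, and the junction protein Cldn5 had 56.1 ± 6.87 TPM. Mural cells of the vessel wall summed to 189.9 ± 6.73 TPM, with 11 of 12 genes at a mean of 1 TPM or more, led by Vtn at 77.0 ± 3.29 TPM and Rgs5 at 66.1 ± 4.21 TPM.

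Some other cell types were near the floor. Markers of ependyma and choroid plexus summed to 12.7, 16.4, 13.7 and 32.4 TPM, and Otx2, a regulator of choroid plexus, was at 0.0378 TPM. Control 4 was highest. In the blood list, haemoglobin genes gave nearly all of 1175, 940.4, 1442 and 762 TPM, with Hba-a1 at 415 ± 111 TPM and Hbb-bs at 315 ± 87.3 TPM. Control 3 was highest and control 4 lowest. Reads of the paired globin genes can match both members, so their split is uncertain. Cd8a, which marks cytotoxic T cells, was at 0.0588 TPM. Ttr itself had 1.22, 17.5, 1.05 and 1.67 TPM, or 14, 200, 18 and 18 counts, with control 2 apart from the other 3.

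**Figure D3:**
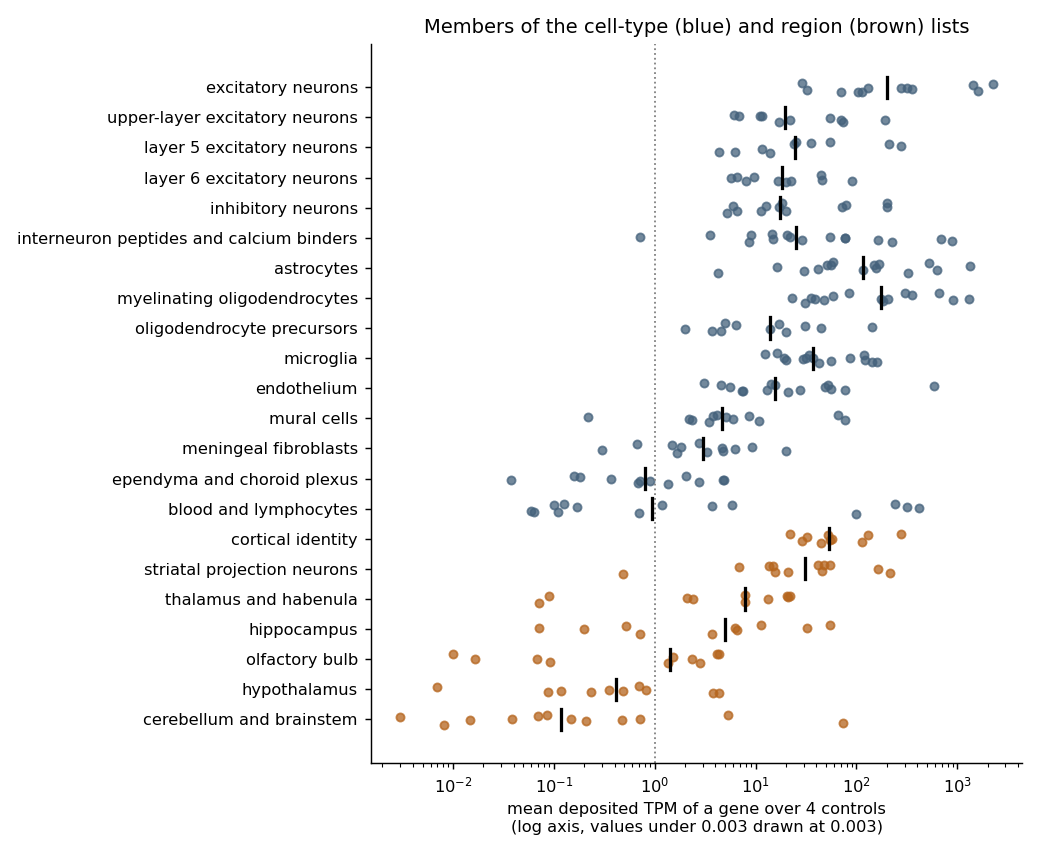
Mean TPM over 4 controls (log axis) of each gene of the cell-type lists (blue) and region lists (brown), with a bar at the median of each list and a dotted line at 1 TPM. Medians run from 202 TPM for excitatory neurons to 0.118 TPM for the cerebellum and brainstem list.

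The label of prefrontal cortex was checked against region markers. All 10 genes of cortical identity were above 1 TPM, summing to 861, 775, 862 and 741 TPM, with Mef2c at 276 ± 49.0 TPM and Neurod6 and Tbr1, regulators of pyramidal neurons, at 129.5 ± 2.74 and 113 ± 8.50 TPM. Levels of markers of other regions were mixed. In the hypothalamus list 2 of 10 and in the cerebellum and brainstem list 2 of 12 genes had a mean of 1 TPM or more. In the thalamus list 8 of 10 did, and in the hippocampus and olfactory bulb lists 6 of 10 each. High members were Calb1 of the cerebellum and brainstem list at 73.0 TPM, Wfs1 of hippocampus at 54.4 TPM and Calb2 of thalamus at 21.8 TPM. Calb1 and Wfs1 are also upper-layer markers here, and Calb2 is also an interneuron marker. Among the lowest, Hoxa5 had no TPM in any library and Hoxb3, Gabra6 of cerebellar granule cells, and Slc6a4, the serotonin transporter of the raphe, had means of 0.00810, 0.0384 and 0.0698 TPM. The thalamic genes Gbx2 and Lhx9 had 0.0708 and 0.0893 TPM, and the olfactory bulb genes Tbx21 and Eomes 0.0913 and 0.0686 TPM. The striatum, the input nucleus of the basal ganglia, stood apart. Its 12 marker genes summed to 299, 673, 346 and 1234 TPM, a factor of 4.13 between control 4 and control 1, the widest of the 22 cell-type and region lists. Ppp1r1b, which encodes DARPP-32, had 95.5, 256, 107 and 399 TPM. Penk, the enkephalin precursor, had 78.5, 149.5, 91.0 and 331 TPM.

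Layer markers differed too. Upper-layer markers summed to 528, 326, 586 and 424 TPM and layer 6 markers to 224, 348, 182 and 323 TPM. Controls 1 and 3 were high in the first and low in the second, without overlap in either. Lamp5 of the upper layers had 204, 121, 268 and 184 TPM, and Hs3st4 of layer 6 had 75.7, 111, 63.4 and 108 TPM. Layer 5 markers, led by Pcp4 and Crym at 279 ± 50.9 and 208 ± 32.1 TPM, again had higher sums in controls 2 and 4, with 598, 718, 594 and 739.8 TPM. The mean deviation of log2 CPM over the layer 5 genes was small, however. It spanned 0.144 between libraries, against 1 for layer 6 and 2.37 for the striatal list. Meningeal fibroblast markers, which lie at the surface, summed to 59.4, 47.5, 84.3 and 36.3 TPM, highest in control 3 and lowest in control 4. Controls 2 and 4 were thus the higher pair for myelin, layer 6 and striatum, and controls 1 and 3 for upper layers and meninges. The part of the depth of dissection in these sums was not tested.

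**Figure D4:**
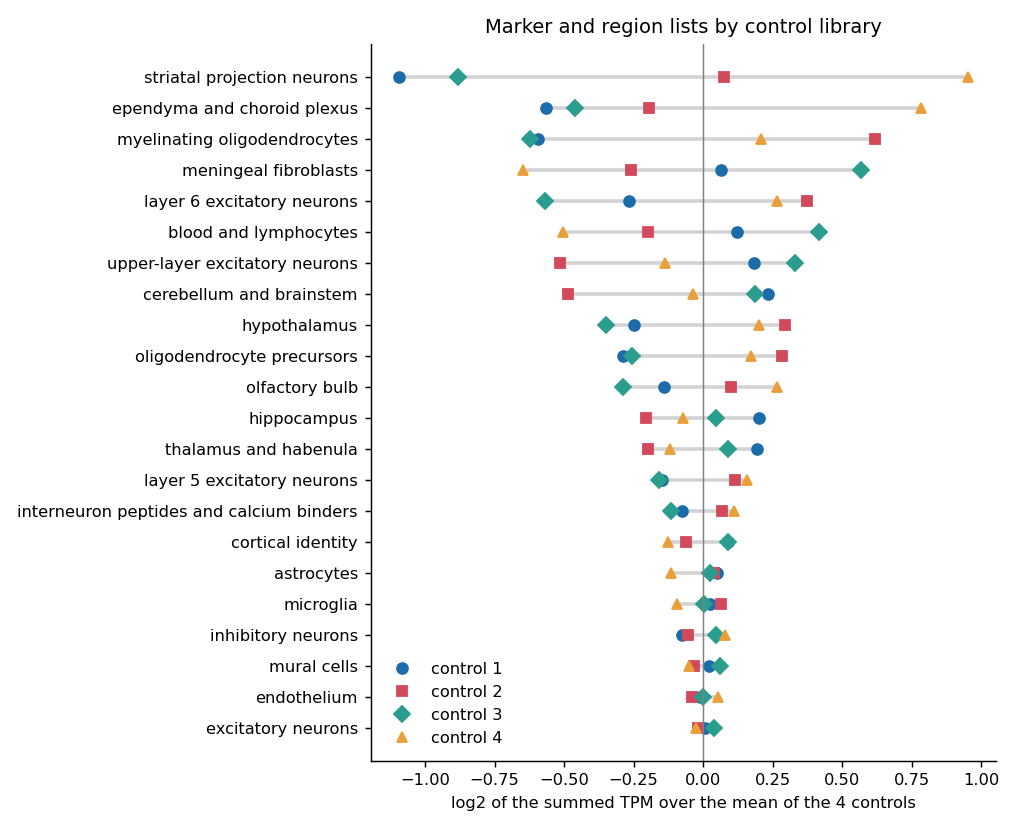
Log2 of each list's summed TPM in a control library over its mean in the 4 controls, for the 22 cell-type and region lists, ordered by the factor between the highest and lowest library. Excitatory neurons, endothelium and mural cells stay close to 0, while striatal projection neurons spread by a factor of 4.13.

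Receptors were ordered by mean TPM within each class, and neighbours are called overlapping where their ranges over the 4 libraries overlap. Of 92 pairs of neighbours with means of 1 TPM or more, 42 overlapped. The rule compares ranges over the libraries and not the genes within each library, so overlap alone does not leave an order open. Gria2 and Gria3 overlapped, yet their ratio was 1.05, 1.04, 1.02 and 1.05 in controls 1 to 4. For Grm3 and Grm5, which also overlapped, the ratio was 0.990, 1.33, 0.993 and 0.984. For glutamate, the obligatory NMDA receptor subunit Grin1 led with 264, 279, 277 and 283 TPM, above its partners Grin2b at 49.3 ± 5.85 TPM and Grin2a at 32.8 ± 6.47 TPM. The ratio of Grin2b to Grin2a was 1.52 ± 0.121. The AMPA receptor subunits, which carry fast excitation, stood at 205 ± 9.56 TPM for Gria1, 164 ± 19.3 for Gria2, 158 ± 19.6 for Gria3 and 50.3 ± 6.63 for Gria4, with Gria2 and Gria3 overlapping. Of the kainate receptor subunits Grik5 led at 144 ± 11.8 TPM, and of the metabotropic receptors Grm3 and Grm5 led at 74.2 ± 3.63 and 69.9 ± 7.43 TPM and overlapped. Grm6, the receptor of retinal bipolar cells, was at 0.0103 TPM.

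For GABA, the slow GABA-B receptor had 399.5, 392, 408 and 408 TPM of Gabbr1 and 188 ± 11.9 TPM of Gabbr2, in a ratio of 2.14 ± 0.117. Of the GABA-A subunits, which form the fast chloride channel, Gabra3 had 139, 134, 155 and 124 TPM. Gabrr1 was at 0.0556 TPM and Gabrp had no TPM in any library. Of these 19 subunit genes 12 had a mean of 1 TPM or more.

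Among receptors of the modulators, Thra, the alpha receptor of thyroid hormone, stood far above the rest at 861 ± 75.5 TPM. It exceeded Thrb by a factor of 22.3 ± 3.93. The corticoid receptors Nr3c1 and Nr3c2 stood at 54.8 ± 2.38 and 16.2 ± 1.37 TPM, and Esr1 and Esr2, the oestrogen receptors, at 1.55 ± 0.134 and 0.161 ± 0.0990 TPM. Ntrk2, the receptor of the neurotrophin BDNF, had 215 ± 14.5 TPM and Ntrk3 26.3 ± 3.42 TPM. Of the peptide receptors Ntsr2, which astrocytes express, led at 151 ± 6.58 TPM, then Cckbr at 85.5 ± 7.43 TPM and Adcyap1r1 at 75.2 ± 4.06 TPM, the last pair overlapping. Cckar, the other cholecystokinin receptor, was at 0.0383 TPM. Adora1, the inhibitory adenosine receptor, had 135 ± 13.8 TPM, the cannabinoid receptor Cnr1 93.4 ± 8.09 TPM and Cnr2 0.182 ± 0.0562 TPM.

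Receptors of amines and acetylcholine came below these leaders. Hrh3, a presynaptic histamine receptor, had 88.2 ± 3.17 TPM, and Hrh4 had no TPM in any library. Muscarinic receptors ran from Chrm1 at 76.2 ± 2.03 TPM through Chrm3, Chrm4 and Chrm2 to Chrm5 at 0.330 ± 0.182 TPM, with no overlap between neighbours. Nicotinic receptors were led by Chrna4 and Chrnb2, which pair in the brain's main form of it, at 30.8 ± 2.99 and 24.4 ± 0.937 TPM. Adra1d led the adrenergic receptors at 40.0 ± 8.11 TPM, above Adrb1 and Adra1b at 29.1 ± 3.01 and 23.7 ± 3.45 TPM. Htr2a, the serotonin receptor on which hallucinogens act, had 22.4, 22.7, 31.4 and 21.5 TPM and was followed by Htr1a, Htr2c and Htr5a at 14.2, 13.9 and 11.4 TPM, which overlapped. Opioid receptors ran from Oprl1 at 38.6 ± 0.393 TPM over Oprd1 and Oprk1 at 15.5 ± 1.47 and 5.68 ± 1.79 TPM to Oprm1 at 1.47 ± 0.299 TPM, with no overlap between neighbours.

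Among the dopamine receptors the range of Drd2 overlapped that of Drd1 and that of Drd5. Drd1 had 12.5, 22.8, 10.9 and 36.9 TPM and Drd2 1.74, 14.7, 3.75 and 33.6 TPM, both highest in control 4 and next in control 2. The ratio of Drd1 to Drd2 was 7.17, 1.55, 2.90 and 1.10, so Drd1 was the higher in every library, by a factor that depended on the library. Drd5 had 3.88, 7.14, 4.14 and 5.55 TPM and lay above Drd2 in controls 1 and 3, where the striatal sum was lowest. Adora2a, the adenosine receptor of the same striatal neurons as Drd2, had 2.85, 16.6, 4.79 and 38.1 TPM. Rxrg among the retinoid receptors had 7.78, 16.1, 7.49 and 27.8 TPM, again highest in controls 4 and 2, while Rxrb stayed at 60.9 ± 3.70 TPM. The share of striatal RNA in these levels was not tested.

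Among paralogs, the related genes of one function, 22 of 112 neighbouring pairs overlapped. The vesicular glutamate transporter Slc17a7 exceeded Slc17a6, the form of the thalamus, by a factor of 182 ± 19.99, and Slc17a8 was at 2.24 ± 0.360 TPM. At the plasma membrane Slc1a2 exceeded Slc1a3 by 1.63 ± 0.0479. Gad1 exceeded Gad2 by 2.74 ± 0.157. The CaMKII subunit Camk2a exceeded Camk2b by 3.92, 3.20, 3.88 and 2.75 in controls 1 to 4. The calmodulin genes Calm2 and Calm3, which encode the same protein, stood at 2334 and 1614 TPM.

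Release machinery had a leading form in each family. Snap25 exceeded Snap23 by a factor of 373 ± 25.9 and Vamp2 exceeded Vamp1 by 14.9 ± 2.07. Vamp2 stood at 1396 ± 43.5 TPM, the calcium sensor Syt1 at 1029.8 ± 70.5 TPM and Syt7 at 644 ± 35.3 TPM. Stx1a, a syntaxin of the fusion complex, was at 374 ± 16.1 TPM. Of the synapsins Syn1 led with 526 ± 12.1 TPM. Cplx2 and Cplx1 had 750.3 ± 26.7 and 635 ± 65.2 TPM. Sncb, beta-synuclein, was at 878 ± 46.4 TPM. App and Aplp1 of the amyloid precursor family overlapped at 1460 and 1431 TPM.

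Energy genes favoured the neuronal and ubiquitous forms. Aldoa exceeded Aldoc by 4.45 ± 0.414 and Eno2, the neuronal enolase, exceeded Eno1 by 3.81 ± 0.164. Ldhb exceeded Ldha by 1.60 ± 0.0410 and Hk1 exceeded Hk2 by 104 ± 4.17. The neuronal glucose transporter Slc2a3 exceeded Slc2a1, the form of vessels and glia, by 2.07, 1.99, 2.09 and 2.01 in controls 1 to 4, the ratio with the smallest relative SD of the 27 computed. Creatine kinase was Ckb at 1483 TPM with Ckmt1 in mitochondria at 304 ± 12.4 TPM, while Ckm and Ckmt2 of muscle were at 0.0728 and 0.0175 TPM. Ldhb, Ldha and Ckb have close pseudogenes, which held 34.5%, 17.5% and 16.8% of their joint counts, so their levels are uncertain in the same way. Eno1b, which is not in the enolase list, had 19.4 TPM, and its close pseudogenes held 136.5 TPM. Whether reads of Eno1 were counted there was not tested.

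The study's title joins transthyretin, a carrier of thyroid hormone and of retinol-binding protein, to vitamin B12, and genes of both were measured. All 10 genes of transthyretin and thyroid hormone handling had a mean of 1 TPM or more and summed to 1095, 1074, 959.8 and 1113 TPM. Their median level was 31.9 TPM, so the highest members carried the sum. Rbp4, the retinol-binding protein, had 38.4 ± 3.06 TPM and Slco1c1, a thyroxine transporter of vessels and astrocytes, 37.6 ± 4.18 TPM. The deiodinase Dio2, which activates the hormone, had 41.4, 25.2, 42.0 and 32.6 TPM, higher in controls 1 and 3. The 11 genes of vitamin B12 handling summed to 294, 292, 300.4 and 286 TPM, a factor of 1.05 between highest and lowest. Its leaders were Lmbrd1, of lysosomal export, at 110.4 ± 5.51 TPM, Mmadhc at 59.2 ± 1.00 TPM, the mutase Mut at 25.7 ± 1.56 TPM and Mmab at 21.6 ± 1.35 TPM. Neuropeptide precursors summed to 3221 ± 192 TPM, with Chgb and Scg2 of secretory granules at 449 ± 20.4 and 265 ± 36.5 TPM beside Cck and Sst. Immediate early genes, which rise within minutes of neuronal activity, all had a mean above 1 TPM. Jund had 269.8 ± 28.1 TPM, Egr3 133, 86.4, 181 and 129 TPM and Egr1 83.6 ± 1.17 TPM.

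Spread among the controls was measured on 14478 genes with a mean of 50 or more counts, as the SD of log2 CPM over the 4 libraries. The median SD was 0.11, and the 95th percentile was 0.34. Counting error alone would give a median of 0.057, and 81.6% of genes exceeded their own counting error. An SD of 0.5 or more was seen in 243 genes and of 1 or more in 27. The 100 most abundant genes had a median SD of 0.097.

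The most variable genes fell into a few patterns over the libraries. The first was striatal. Drd2 had 1.79, 15.3, 3.79 and 33.9 CPM in controls 1 to 4 (SD 1.89 on the log2 scale) and Adora2a 2.99, 17.6, 4.95 and 39.1 CPM (SD 1.68). Six3, a transcription factor of striatal neurons, had 0.332, 2.91, 0.825 and 6.72 CPM, and Gpr6 0.956, 4.73, 1.79 and 12.0 CPM. In all 4 genes control 4 was highest, control 2 next, and controls 1 and 3 lay several-fold lower. Syndig1l and Lrrc10b, not in the list of striatal markers, showed the same order with 3.37, 18.8, 4.73 and 42.4 CPM and 2.49, 12.96, 3.41 and 25.8 CPM. Sh3rf2, Serpina9, Cd4 and Slc35d3 did so as well, with SDs of 2.08, 1.48, 1.37 and 1.24. Cd4 is known as a T-cell gene, and which cells gave its reads was not tested. Cd8a, which marks cytotoxic T cells, was at 0.0588 TPM in these libraries and cannot stand for T cells with Cd4. Of the 12 striatal markers 11 were among the 100 most variable genes, which were taken from 14478 genes. The list was chosen with earlier results of these data known, so this count is no independent support for the pattern.

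A second pattern had control 3 highest and control 4 lowest. Prg4, which encodes lubricin, had 1.04, 4.56, 7.86 and 0.260 CPM and Ogn, a small proteoglycan, 3.62, 3.17, 10.9 and 1.13 CPM. Fmod, of collagen matrix, had 5.28, 5.24, 11.8 and 1.52 CPM, and the transporters Slc13a4, Slc47a1 and Slc26a7 had SDs of 1.11, 1.33 and 1.31. Fmod and Slc13a4 belong to the list of meningeal fibroblasts, of which 5 of 12 genes were among the 100 taken from 14478 genes. That list too was chosen with earlier results known. Fmod and Slc13a4 were also higher in controls 1 and 2 than in control 4.

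The last 4 of the 20 most variable genes showed orders of their own. Eps8l1, an actin-binding adaptor, led all genes with 11.1, 10.7, 0.385 and 4.08 CPM (SD 2.16). Controls 1 and 2 were high and control 3 was low, and leaving out control 3 lowered the SD to 0.81. Ttr, the gene the other viruses target, had 0.582, 8.45, 0.495 and 0.780 CPM (SD 1.84), and without control 2 the SD was 0.30. Rn7sk, a nuclear RNA that holds back elongation by RNA polymerase II, had 8.14, 1.48, 3.88 and 6.16 CPM, lowest in control 2. Gm43305, an annotated gene without a name of function, had 0.457, 2.32, 3.90 and 1.52 CPM.

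Across the 100 most variable genes, controls 2 and 4 were the highest pair in 54, against 27.0% of all 14478 genes. Controls 1 and 3 were the highest pair in 22, against 28.2% of all genes. Of the 100, 28 belonged to a list. The lists held 604 genes in all, some of them with too few counts to enter the 14478. The 11 striatal genes were joined by 5 of myelin, among them Mag, Mbp, Mobp and Mog, and by Ccn2 and Nxph4 of layer 6. The genes just inside and just outside the 100 had SDs of 0.650 and 0.646.

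**Figure D5:**
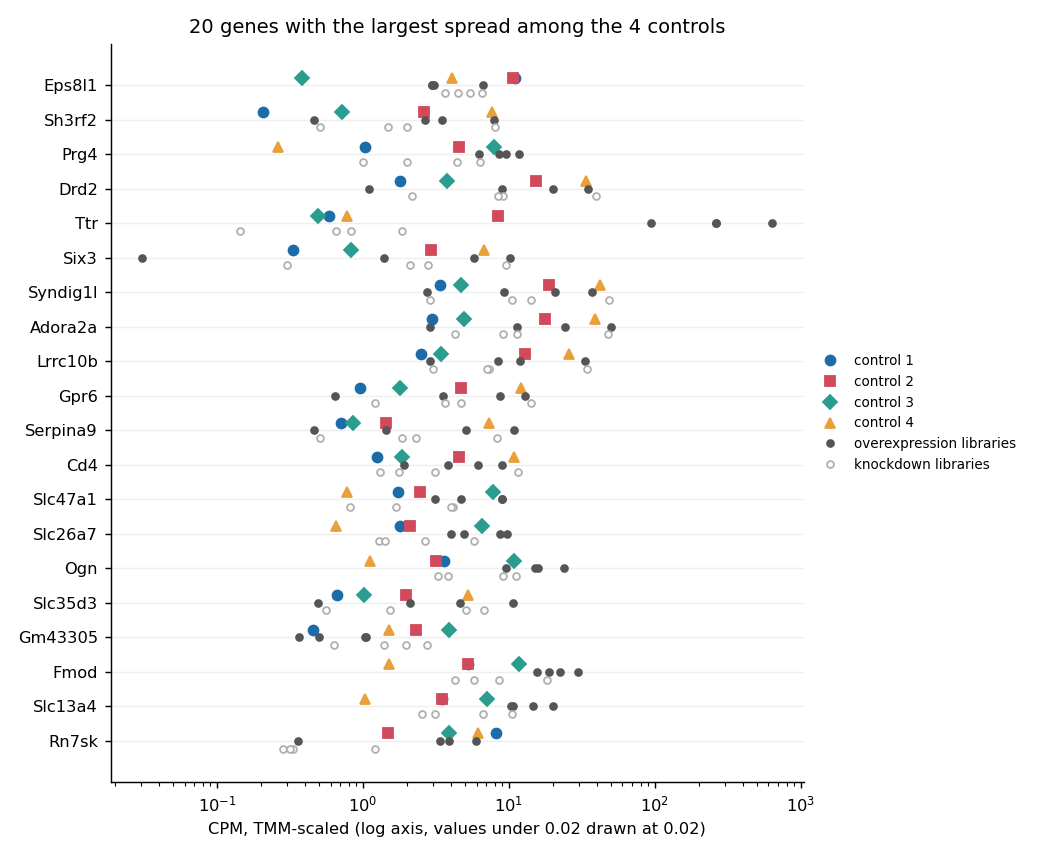
CPM (log axis) of the 20 genes with the largest SD of log2 CPM among the controls, with coloured symbols for the 4 controls, filled grey points for the 4 overexpression and open points for the 4 knockdown libraries. Control 4 and control 2 lie to the right for Drd2, Adora2a, Six3 and their neighbours, and for Drd2 the 8 other libraries span 1.11 to 39.7 CPM.

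The least variable genes varied less than counting error predicts. Mlh3 and Mettl14, of mismatch repair and of RNA methylation, had 35.3, 35.5, 35.3 and 35.4 CPM and 22.5, 22.5, 22.4 and 22.3 CPM in controls 1 to 4. Mboat7, Idh3g, Spcs2, Spcs1 and Acvr1b were among the 10, and Gabbr1 was the most abundant of those named, with 845, 837, 849 and 845 CPM. All 10 had an SD below their own counting SD, which choosing the smallest 10 of 14478 values favours, so this is a description of these 4 libraries.

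The same genes varied in the other groups, which were not used to choose them. The 100 genes had a median SD of 0.54 within the overexpression libraries, against 0.12 over all genes, and of 0.70 within the knockdown libraries, against 0.11. In the overexpression group 69 of the 100 lay above the 95th percentile of all genes, and in the knockdown group 85. Drd2 ran from 1.11 to 35.02 CPM in the overexpression libraries and from 2.17 to 39.7 CPM in the knockdown libraries. The striatal sum ran from 272 to 1712 TPM and from 244 to 1429.8 TPM, so each group held a library below control 1 and one above control 4. Myelin sums were 2803 to 4227 TPM with overexpression and 1734 to 4166 TPM with knockdown, and control 2 was the highest of all 12. Eps8l1 did not share this: it ran from 2.99 to 6.64 CPM and from 3.62 to 6.50 CPM. The common biological coefficient of variation from edgeR was 0.0972 in controls, 0.131 with overexpression and 0.1145 with knockdown.

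The other groups held mostly the same genes among their most abundant. Of the 100 most abundant genes of the controls, 90 to 96 were among the 100 most abundant of each of the 8 other libraries. The share of these 100 ran from 26.0% to 31.7% of TPM there, and Bc1 from 41286 to 74985 TPM. In edgeR's test over 18289 genes with Benjamini-Hochberg adjustment, 0 of the 100 most abundant genes passed in overexpression against control, where 0.00547% of all genes passed. In knockdown against control 0 of the 100 passed as well, again with 0.00547% of all genes. Of these 100, 5 and 2 had an unadjusted p below 0.05, and DESeq2 called 0 and 0. Their median difference was -0.07 and -0.03 on the log2 scale, against 0.004 and 0.005 for all genes. Of the 18289 genes an unadjusted p below 0.05 was reached by 1145 and 1039, and DESeq2, run on all counts, called 37 and 42 of them.

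Of the 100 most variable genes, 1 passed in overexpression against control and 0 in knockdown against control. An unadjusted p below 0.05 was reached by 22 of them in overexpression and by 5 in knockdown. Over all 18289 genes tested, a p this low was reached by 1145 and 1039. DESeq2 called 3 and 3 of the 100. They were chosen for their spread in the same 4 controls that enter both comparisons, so these counts are no independent test of them. The 1 that passed by edgeR was Ttr, the gene carried by the virus, at 7.01 ± 0.81 (SE) on the log2 scale with an edgeR adjusted p of 0.0168. Its range was 94.6 to 638 CPM with overexpression, above all 4 controls. The call was lost when only these 2 groups were fitted (edgeR adjusted p = 0.264), without control 1 (0.143), 3 (0.0922) or 4 (0.162), and without overexpression replicate 3 (0.0506). It was kept with no filter on low counts (edgeR adjusted p = 3.156e-05), with the replicate block (0.0181) and without control 2 (0.00149). The call also stood without overexpression replicate 1, 2 or 4 (edgeR adjusted p from 0.00367 to 0.0259) and by DESeq2 (DESeq2 adjusted p = 1.89e-07). In knockdown against control the 1 gene of all that passed was Nr4a1, an activity-induced nuclear receptor that is in neither set of 100. It had 49.2, 53.9, 56.5 and 45.3 CPM in controls 1 to 4 and 79.3 to 119 CPM in the knockdown libraries, without overlap, a rise of 1.06 ± 0.13 on the log2 scale with an edgeR adjusted p of 0.0242. That call was lost without any 1 of the 4 controls, with edgeR adjusted p from 0.0819 to 0.193, without knockdown replicate 1, 2 or 3, with 0.1045 to 0.150, and with the replicate number as a block, with 0.103. It was kept with no filter on low counts (edgeR adjusted p = 0.000263), with only the 2 groups fitted (0.0285) and without knockdown replicate 4 (0.00102). DESeq2 kept it as well (DESeq2 adjusted p = 1.4e-11). No member of the 22 cell-type and region lists passed in either comparison by edgeR. Of the 220 members tested, 35 and 26 had an unadjusted p below 0.05, against 1145 and 1039 of all 18289 genes. DESeq2 called 5 and 0 of the members. List medians reached 1.20 on the log2 scale for meningeal fibroblasts with overexpression. There the sum was 96.0 to 160.0 TPM against 36.3 to 84.3 TPM in controls, without overlap. For myelin they were -0.29 and -0.47, with all 15 members lower on average in both comparisons, which share the 4 controls and among them the 2 controls high in myelin. The striatal list had medians of 0.32 and 0.21 beside ranges that overlapped.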

How the data were processed

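RNA of 12 samples of injected prefrontal cortex was sequenced after poly(A) selection from 500 ng of total RNA with a directional kit and UMI adaptors, per the labels' protocols. The gene counts were deposited by the authors as whole numbers, and bcl2fastq 2.20.0.422, UMI-tools, featureCounts, DESeq2 and the build GRCm38 (mm10) are named in the submitters' processing notes. The TPM values were deposited by the authors next to the counts, as were variance-stabilised values on a log2 scale. Not given in the sources used here are the aligner, the release of the annotation, the strandedness of counting and the treatment of reads with several matches. Of 55401 gene identifiers 55141 matched GENCODE M21, and the other 260 held 0.00474% of the counts of all 12 libraries.

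Levels are deposited TPM. Spread is the SD of log2 CPM (TMM factors, prior count 2) over genes with a mean of 50 counts, beside the SD that Poisson counting gives. Control pairs differed by 5.37 to 22.2 chi-square units per degree of freedom, so none was a repeat. Pseudogenes at any level were aligned to protein-coding transcripts with BLAST+ 2.17.0. Groups were compared with edgeR 4.0.16 (R 4.3.3), quasi-likelihood test over all 12 libraries, adjusted p below 0.05, and with DESeq2 1.42.0 as an alternative. Counts were also simulated gene by gene from the dispersion trend of these data, with 200 changed genes. On them edgeR recovered 86.4% of 2-fold changes in overexpression (18109 genes) and 82.8% in knockdown (18137 genes). At 1.5-fold it recovered 46.75% and 56.58%. Among the unchanged genes 7 and 8 were called. Shifts shared by many genes, such as those of the striatal list, were not simulated, so recovery in the real libraries was not measured. Alternatives covered normalization, filters, pseudogenes, gene length and each library left out.

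Members and lists were chosen with earlier results of these data known. Genes were named by rule: the 25 highest by TPM, all members of lists of up to 8 genes, the 4 highest and those under 0.1 TPM of longer lists, the 20 most and 10 least variable, Ttr, and genes passing edgeR. Some of these are given only in counts and ranges. The 4 control libraries held 22911948 to 37166146 counts. A few genes and 1 sequence that the rule names are not reported here.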

Additional observations from a re-analysis of the deposited data

Results flagged for a closer look

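In a group of 4 libraries, a value was singled out where the gap of the highest or lowest library to its nearest neighbour was too large a part of the whole range by Dixon's criterion for 4 samples. Among 335 results tested (215 genes, 84 lists and 36 families), 18 met this, or 5.37%, where chance gives about 5%. Control 2 was the library apart in 8 of them, controls 3 and 4 in 5 each and control 1 in 0.

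Control 2 stood apart in Ttr, where the gap was 0.963 of the range and the level was 17.5 TPM against 1.05 to 1.67 TPM. It was highest in Slc17a7 (gap 0.849 of the range, 1533 TPM) and so in the list of vesicular glutamate transporters (0.851), and lowest in Slc17a6 (0.927, 7.24 TPM against 8.12 to 8.19 TPM). In Cd8a control 2 was lowest (0.884), and in the keratin family its share was highest (0.830). Ckmt2 and Hoxb3 had TPM only in control 2, so their gap was 1, at levels of 0.0700 and 0.0324 TPM.

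Control 4 was highest in Serpina9 (gap 0.895 of the range, 5.18 TPM), in the synuclein Sncb (0.883, 947 TPM against 849 to 861 TPM), in Gabrr1 (0.842, 0.192 TPM) and in the summed synaptobrevins (0.843). It was lowest in the summed astrocyte markers (0.843, 3371 TPM against 3715 to 3779 TPM). Control 3 was highest in the calcium pump Atp2b1 (0.922, 312 TPM against 273 to 276 TPM) and lowest in Tubb2a (0.849, 469.9 TPM against 548 to 562 TPM). It was highest in the serotonin receptor Htr2a (0.870, 31.4 TPM), in the summed beta subunits of the sodium pump (0.843) and in the list of syntaxin 1 and Snap proteins (0.834), which Snap25 leads.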

How the results depend on the processing

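The 100 most abundant genes held 18.2% of CPM in place of 28.2% of TPM, 20.6% with mitochondrially encoded genes left out, 30.4% with pseudogenes left out, 32.8% with the union of exons as gene length (both chosen after seeing the data), and 27.8% to 28.7% with one control left out. Genes at 1 TPM or more in all controls numbered 15955, and 16060 to 16176 with one control left out. The median spread among controls, 0.108, was 0.0968 to 0.109 with one control left out, 0.0730 on the deposited variance-stabilised values, 0.128 over genes with a mean of 10 or more counts and 0.228 with no filter. The median spread of the 100 most variable genes in the overexpression group, 0.541, was 0.445 to 0.634 with one control left out, 0.277 on variance-stabilised values and 0.733 from 10 counts up. In the knockdown group, 0.702, it was 0.594 to 0.704, 0.421 and 1.02 under the same changes, and 0.643 with genes of the marker and region lists left out, an alternative chosen after seeing the data. Without control 1, 2, 3 or 4, 82, 66, 67 and 63 of the 100 most variable genes were shared, and 35, 44, 25 and 16 genes had an SD of 1 or more, against 27 with all 4. Genes called by edgeR in overexpression and knockdown, 1 each, were 20 and 22 with no filter on low counts, 0 and 2 with only the compared groups fitted, 40 and 42 by DESeq2, and 0 to 4 and 0 to 10 with one library left out. Deviations from the group mean correlated from -0.424 to 0.246 between libraries of the same number. The labels do not say whether the numbers mark pairs. These correlations cannot decide it, because other differences between libraries can hide a shared factor. With the replicate block 1 and 0 genes were called. The cause of these changes was not tested, except that a lower count minimum adds genes with more counting error. Depth limits genes below 50 counts, for which no spread is given.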

Other observations

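Other paralog families of the 4 controls showed the same kind of order, with a leading form in some and level forms in others. Of the beta-tubulins, the building blocks of microtubules, Tubb4a led at 851 ± 114 TPM, while Tubb2a and Tubb5 overlapped at 533 and 524 TPM, and the neuronal Tubb3 had 426 ± 13.4 TPM. Of the 14-3-3 adaptor proteins Ywhag, Ywhah and Ywhae stood close together at 918, 876 and 852 TPM. The calcium pumps of the plasma membrane ran from Atp2b1 at 283 ± 19.0 TPM through Atp2b2 and Atp2b4 to Atp2b3 at 53.9 ± 3.78 TPM. Of the DNA methyltransferases Dnmt1 and Dnmt3a stood at 24.0 ± 0.877 and 21.0 ± 1.02 TPM and Dnmt3b at 0.318 ± 0.0423 TPM. Of the plasma-membrane GABA transporters Slc6a11, of astrocytes, had 75.2 ± 5.54 TPM, and Slc6a12 had 0.236 TPM.

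Of the secreted carriers of lipids, Apoe and Clu stood at 2069 and 907 ± 57.9 TPM and Apod at 139 ± 42.8 TPM. Apod had 97.3, 194, 114 and 149 TPM in controls 1 to 4, with control 2 highest, as for the myelin markers.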
